A study of Mus musculus with 2 samples.

Results

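Klf2, Klf3 and Klf6 are 3 of the Kruppel-like factors, transcription factors that bind GC-rich and CACCC sequences through zinc fingers at their carboxyl end. They were taken by their rows in the deposited table, 3 of 12432 genes, and followed over all 178 cells. Each cell was a CD4 T cell specific for the peptide 2W1S, sorted from the spleen and peripheral lymph nodes; the mice were C57BL/6 under CA-2W1S colonization, that is, carrying Candida albicans that displays this peptide. Cells were captured on a Fluidigm C1 instrument and their RNA was read with the SMART-Seq v4 kit, which covers whole transcripts, does not mark the strand and adds no molecular identifiers. A March capture (82 cells; run Mar1 with 25 cells, run Mar17 with 57) and an April capture (96 cells; runs Apr13 and Apr21 with 48 each) carried 1 treatment label and stand as replicates 1 and 2. No uncolonized mice were analysed here, and the labels do not give the number or age of the mice.

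In T cells, Klf2 is known as a factor of the resting, recirculating state: it switches on S1pr1, the receptor that lets T cells leave lymphoid organs, and its transcript is lost after strong activation through the T cell receptor. Klf3 lacks most activating function and represses its targets by recruiting the corepressors Ctbp1 and Ctbp2; in other cell types it is known to be induced by a fellow family member, Klf1, and to compete for the same CACCC sites. Klf6 is broadly expressed and induced quickly by injury and growth signals, and Klf13, a close relative, is known for activating the chemokine gene Ccl5 in late-activated T cells.

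The 3 genes lie on different chromosomes, all on the + strand of mm10: Klf2 at chr8:72319033-72321656, Klf3 at chr5:64803388-64832901 and Klf6 at chr13:5861482-5870394, in GENCODE vM21. The Klf3 locus overlaps 2 other annotated genes that were not analysed here, Gm20033 on the opposite strand (730 shared bases) and C230096K16Rik on the same strand (1722 shared bases), so reads from these stretches cannot be told apart. The stretch just before each gene's first annotated start is shown because it is where the family's own binding letters can be looked for. All 3 had an entry in the RefSeq promoter table, build GRCm38.p6, and the stretches are chr8:72318812-72319032, chr5:64803271-64803387 and chr13:5861239-5861481. Capitals mark a motif on either strand: the GC box GGGCGG, the CACCC box (which reads GGGTG on the other strand), the E box CACGTG and the MEF2 site.
Klf2: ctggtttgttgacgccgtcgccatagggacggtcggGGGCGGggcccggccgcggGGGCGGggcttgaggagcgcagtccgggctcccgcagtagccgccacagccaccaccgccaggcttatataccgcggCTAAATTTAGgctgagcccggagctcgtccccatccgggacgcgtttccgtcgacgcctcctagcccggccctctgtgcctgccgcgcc
Klf3: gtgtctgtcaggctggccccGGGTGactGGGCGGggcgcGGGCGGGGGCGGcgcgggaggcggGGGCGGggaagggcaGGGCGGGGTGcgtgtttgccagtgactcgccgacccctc
Klf6: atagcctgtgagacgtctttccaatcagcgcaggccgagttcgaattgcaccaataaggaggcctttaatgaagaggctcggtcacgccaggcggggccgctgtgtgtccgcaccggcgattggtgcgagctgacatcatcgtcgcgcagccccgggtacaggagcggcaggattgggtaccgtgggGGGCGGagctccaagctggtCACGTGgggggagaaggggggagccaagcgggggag

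The Klf3 stretch was the densest in the family's own letters, with 5 GC boxes and 2 CACCC boxes in 117 bases; 1 CACCC box shared a base with a GC box. The Klf2 stretch held 2 GC boxes in 221 bases and the Klf6 stretch 1 in 243. Over the 250 bases before the RefSeq start, a GC box stood in 32.7% and a CACCC box in 52% of 32851 promoters of that length, so neither is rare. The MEF2 site of Klf2, 118 bases before its RefSeq start, is the sequence class bound by MEF2 factors downstream of the kinase Erk5 (gene Mapk7), a known route of Klf2 induction; a match to the MEF2 site stood in 0.508% of promoters. The E box of Klf6, 43 bases before its RefSeq start, stood in 6.02%. A FOXO site (GTAAACA, in 3.17% of promoters) and a cyclic AMP response element (TGACGTCA, 1.55%) were searched on both strands as well, and these letters were in none of the 3 windows. The base composition was 71.5% G and C for the Klf2 stretch, 79.5% for Klf3 and 64.2% for Klf6.

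The sorted cells carried T cell transcripts. Here a level is the deposited log2(value + 1), where the value behaves like a TPM value (transcript abundance per length and per fixed total) and is called the linear value; a log2 level of 1 equals a linear value of 1. Cd3d and Cd3g reached that level in 100% of cells, Trac in 96.6% and Cd4 in 70.8%. Cd8a reached it in 6.74% of cells and Cd8b1 in 19.7%, and the summed CD8 level had a median of 0 in both captures. Of the B cell markers 2 of 6 were in the table and their summed linear level had a median of 2.71 (0 to 1649.1), against 5257.7 (50.1 to 18783.0) for the 5 CD4 T cell markers. Of the myeloid markers 3 of 6 were in the table, with a median sum of 2.81 (0 to 2404.2), of the NK markers 1 of 3 (median 0) and of the erythroid markers 0 of 4. Ebf1, a B cell gene, stood at 1 or above in 88.8% of these T cells, so a level just above 1 did not by itself separate cell types; the share of each factor at a linear value of 10 is therefore given too. Cells held a median of 5344 detected genes in March and 4933.5 in April, and in 3 Mar1 cells mitochondrial transcripts took over 50% of the signal. The number of reads behind a value is unknown.

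**Figure D1:**
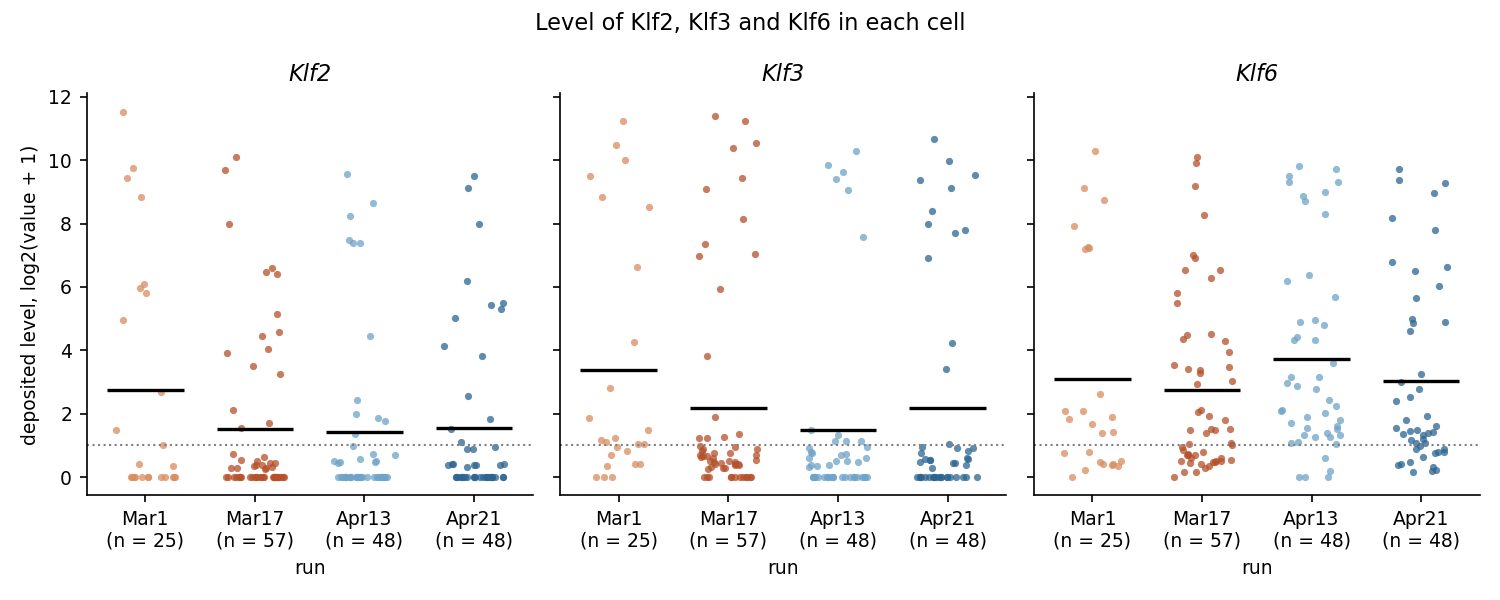
Each point is 1 cell, with the deposited log2(value + 1) level on the vertical axis, 1 panel per gene and 1 column per run; black bars are run means and the dotted line marks a linear value of 1. Klf3 falls into a band of cells at or under about that line and a separate band of high cells with few between, while Klf6 fills the whole range.

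Klf2 lay under a linear value of 1 in most cells and was high in a minority. It was at 0 in 89 of 178 cells; the linear value was 1 or more in 53, 29.8% (exact Clopper-Pearson 95% interval 23.2% to 37.1%, which like all intervals here covers counting error only). The share was 32.9% in March and 27.1% in April, and by run 44% in Mar1, 28.1% in Mar17, 25% in Apr13 and 29.2% in Apr21. In the cells at 1 or above the median log2 level was 5.14 and the highest 11.53, and 37 cells (20.8%) reached a linear value of 10. The 10 highest cells held 80.5% of all Klf2 signal, so a mean over cells speaks of few of them.

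Klf3 was split into 2 bands. It reached a linear value of 1 in 57 cells, 32.0% (25.2% to 39.4%), close in number to Klf2, but was above 0 in 121 cells (68%) against 89 for Klf2. Of the 57 cells, 16 lay between log2 levels of 1 and 1.5, only 8 between 1.5 and 6, and 33 at 6 or more, of which 24 were at 8 or more. For Klf2 28 cells and for Klf6 64 cells lay between 1.5 and 6. The lower Klf3 band ran across the threshold, with 16 cells just under it (log2 0.75 to 1) and 11 just over it (1 to 1.25), so the count at 1 includes cells that differ little from those below it. The median level of the cells at 1 or above was 7.37 (quartiles 1.48 and 9.44).

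The share of Klf3 cells was 40.2% in March (29.6% to 51.7%) and 25% in April (16.7% to 34.9%), and the high March share lay in 1 run. It was 64% in Mar1 (42.5% to 82%), 29.8% in Mar17, 22.9% in Apr13 and 27.1% in Apr21. At a linear value of 10 the runs lay closer, at 32% in Mar1, 21.1% in Mar17, 12.5% in Apr13 and 22.9% in Apr21, with 37 cells (20.8%) in all. The share of cells with Klf3 above 0 was 81.7% in March (71.6% to 89.4%) and 56.2% in April (45.7% to 66.4%), with 1 capture in each month. Mar1, which holds the 3 mostly mitochondrial cells, stood within March in this measure, at 88% beside 78.9% in Mar17. Month and run are not groups of the study and were not tested.

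Klf6 was the most widespread of the 3. It was above 0 in 173 cells (97.2%) and reached 1 in 127, 71.3% (64.1% to 77.9%), with a median log2 level of 3.16 in those cells. Its levels ran through the whole range, with 26 cells between 1 and 1.5, 17 between 1.5 and 2, 29 between 2 and 4, 18 between 4 and 6, 16 between 6 and 8 and 21 at 8 or more. The share was 61.0% in March (49.6% to 71.6%) and 80.2% in April (70.8% to 87.6%), and by run 60% in Mar1, 61.4% in Mar17, 89.6% in Apr13 and 70.8% in Apr21. At a linear value of 10 it was 33.1% in all cells, 30.5% in March and 35.4% in April, with 28% in Mar1, 31.6% in Mar17, 39.6% in Apr13 and 31.2% in Apr21.

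Within the family, Klf13 stood far above the 3 factors and the other members. The table held 9 of 17 Klf genes and the 4 Sp genes searched for; Klf1, Klf5, Klf8, Klf9, Klf12, Klf14, Klf15 and Klf17 were not analysed here. As mean log2 level over the 2 captures (per-length values, zeros included; ± SD, n = 2), Klf13 was at 6.87 ± 0.20 and at 1 or above on the linear scale in 94.9% of cells. Klf6 came next at 3.11 ± 0.38, Sp3 at 2.99 ± 0.37, Klf3 at 2.19 ± 0.51, Klf2 at 1.69 ± 0.29 and Sp1 at 1.55 ± 0.55. Klf6 and Sp3, Klf3 and Klf2, and Klf2 and Sp1 differed by no more than the larger of their SDs, while Sp3 lay above Klf3 in both captures (3.26 and 2.55 in March, 2.73 and 1.84 in April). Klf6 also lay above Klf3 and Klf3 above Klf2 in both captures, but in Mar1 Klf3 (mean 3.39) lay above Klf6 (3.08). Klf10 (1.04 ± 0.10), Sp2 (0.97 ± 0.08) and Klf4 (0.74 ± 0.25) were lower, and Klf7, Klf16, Sp4 and Klf11 averaged 0.54 or less.

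At a linear value of 1, most cells held Klf6 with or without the others, and few held Klf2 or Klf3 without it. At that level 59 cells (33.1%) held Klf6 alone, 24 Klf2 with Klf6, 27 Klf3 with Klf6 and 17 all 3 (9.55%, 5.66% to 14.9%). Klf2 alone was found in 7 cells, Klf3 alone in 8, Klf2 with Klf3 but not Klf6 in 5, and none of the 3 in 31 (17.4%). Of the 8 cells with Klf3 alone 6 were Mar1 cells. At a linear value of 1 Klf6 was in 77.4% of the cells with Klf2 and 77.2% of those with Klf3, near its 71.3% among all cells. At a linear value of 10 fewer cells held Klf6. Klf6 reached it in 14 of the 37 cells with Klf2 at 10 and in 15 of the 37 with Klf3 at 10. Among all cells its share was 33.1%. All 3 reached a linear value of 10 in 7 cells (3.93%).

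In each pair the share of one factor at a linear value of 1 was larger in cells that held the other than in cells that did not. The intervals of the 2 classes overlapped each time. Among Klf2-high cells (linear value of 1 or above) 22 of 53 held Klf3, 41.5% (28.1% to 55.9%), against 35 of 125 Klf2-low cells, 28% (20.3% to 36.7%). The shares were 48.1% against 36.4% in March and 34.6% against 21.4% in April, but Mar1 went the other way with 54.5% of 11 Klf2-high against 71.4% of 14 Klf2-low cells. At a linear value of 10 for both genes they were 32.4% (18% to 49.8%) and 17.7% (11.8% to 25.1%), with 30% and 22.6% in March and 35.3% and 13.9% in April. Klf6 was in 77.4% of Klf2-high and 68.8% of Klf2-low cells, with 74.1% against 54.5% in March and 80.8% against 80% in April; at a linear value of 10 it was in 37.8% and 31.9%. It was in 77.2% of Klf3-high and 68.6% of Klf3-low cells, with 69.7% against 55.1% in March and 87.5% against 77.8% in April; in Mar1 the shares were 56.2% against 66.7%. At a linear value of 10 Klf6 was in 40.5% of Klf3-high and 31.2% of Klf3-low cells, with 45% and 25.8% in March and 35.3% and 35.4% in April.

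**Figure D2:**
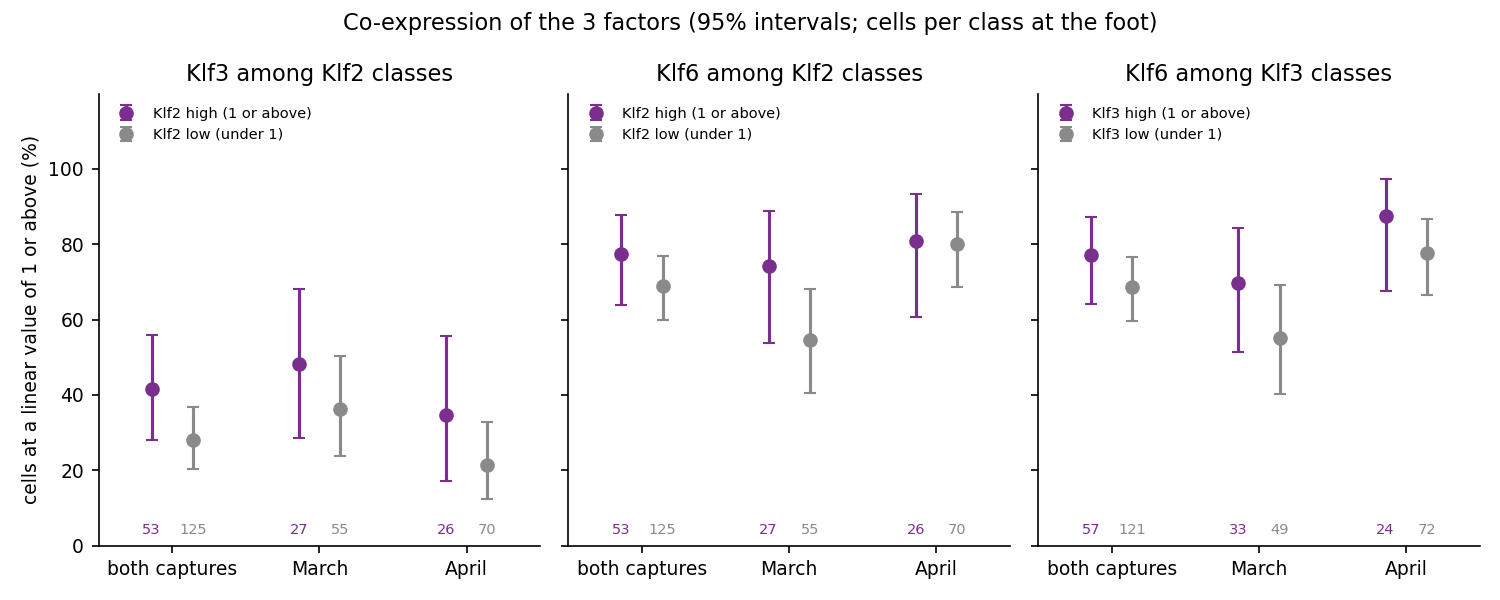
Percent of cells whose linear value of the second factor was 1 or more, among cells high (purple) and low (grey) in the first, for both captures together, March and April; bars are exact 95% intervals and the digits at the foot count the cells of each class. The high class is above the low class in each pair and capture, and all intervals overlap within a pair.

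Rank correlations over the cells of a run were weak and mostly positive. Averaged over the 4 runs, Spearman rho was 0.13 for Klf2 with Klf3 (0.03, 0.28, 0.10 and 0.10 in Mar1, Mar17, Apr13 and Apr21), 0.15 for Klf2 with Klf6 (0.24, -0.01, 0.26 and 0.09) and 0.16 for Klf3 with Klf6 (0.29, 0.21, 0.04 and 0.08). Pearson correlations of the log2 levels averaged 0.07 for Klf2 with Klf3 (-0.02, 0.12, -0.01 and 0.19), 0.08 for Klf2 with Klf6 (0.24, -0.11, 0.19 and -0.02) and 0.12 for Klf3 with Klf6 (0.36, 0.05, -0.06 and 0.13). The cells of a run share chip, pool and depth, so these values are descriptions. The number of genes detected in a cell had a mean rho of 0.00 with Klf2, 0.13 with Klf3 and 0.16 with Klf6, and its part in the pair values was not tested beyond a partial correlation, under which they were 0.12, 0.13 and 0.13. Many genes stood as high. Of 10633 genes, 758 had a mean rho with Klf2 at least as large as that of Klf3, and 490 at least as large as that of Klf6. With Klf3, 773 had a mean rho at least as large as that of Klf6.

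The 3 factors were then read against single T cell state genes, as the share of cells with each factor among cells at 1 or above and under 1 for the state gene. Klf2 was in 20% of Cd44-high cells (9.05% to 35.6%) and 45.2% of Cd44-low cells (29.8% to 61.3%) in March, and in 24.1% and 31% in April; Cd44 is a marker of antigen-experienced T cells. It was in 15% of Cxcr5-high cells (5.71% to 29.8%) and 35.7% of Cxcr5-low cells (23.4% to 49.6%) in April, and in 25% and 35.5% in March; Cxcr5 guides T cells to follicles. In both captures the Klf2 share was lower in the cells high for either gene, with overlapping intervals each time. For Klf3 the Cxcr5 shares ran the other way: in March it was in 60% of Cxcr5-high and 33.9% of Cxcr5-low cells, in April in 27.5% and 23.2%. Klf6 was in 90% of Cxcr5-high and 73.2% of Cxcr5-low cells in April, but in March in 60% and 61.3%. By Cd69, an early activation marker, Klf6 was in 64.7% of high and 54.8% of low cells in March, and in April in 81.2% and 77.8%. These shares were picked from 24 pairs of a factor and a state gene after their values were seen.

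Genes that follow each factor were ranked by mean rho over the 4 runs, among 4111 genes at 1 or above in at least 25% of cells of both captures, and those with 1 sign in all 4 runs were named. Such genes made up 17.4% for Klf3 (574 positive, 143 negative), 18.6% for Klf6 (602 and 162) and 13.6% for Klf2 (309 and 252). Unrelated signs in 4 runs would give 12.5% if both signs were equally likely. The values leaned positive, with a median mean rho of 0.0411 for Klf3, 0.0401 for Klf6 and 0.0116 for Klf2. The part of this lean in the shares was not tested. With a partial rank correlation given the number of genes detected the shares were 14.5% for Klf3 (400 positive, 197 negative), 14.7% for Klf6 (386 and 220) and 13.5% for Klf2 (290 and 265). The order of genes in one month was nearly unrelated to that in the other: across these genes, which are not independent, rho in March and rho in April had a Spearman correlation of 0.0245 for Klf3, 0.0779 for Klf6 and 0.0267 for Klf2. The names below are therefore the extremes of weak, noisy rankings.

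Closest to Klf3 were Lsm14a, an RNA-binding protein of processing bodies, at a mean rho of 0.33 (0.61, 0.18, 0.20 and 0.32 in run order), and Hoxaas3, a noncoding RNA antisense to the Hoxa cluster, at 0.30 (0.31, 0.27, 0.20 and 0.40). Srek1, a splicing regulator, and Frg1 followed at 0.28, and Ube2c, Cdc42se2, Pola1 and Brip1 at 0.27. Ube2c drives mitotic protein degradation, Pola1 is the catalytic subunit of the polymerase that primes replication, and Brip1 is a DNA repair helicase. The most opposed were Tmem208 at -0.26 (-0.26, -0.30, -0.29 and -0.19), Wdr61 at -0.25, Tcf20 at -0.24, the antisense transcript Gm15859 at -0.23 and Ubash3a, a brake on T cell receptor signalling, at -0.21. Hoxaas3 and Gm15859 lie opposite other genes, and without strand their reads cannot be told from those of their partners.

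Closest to Klf6 were Pdia6, a disulfide isomerase of the endoplasmic reticulum, at 0.33 (0.62, 0.22, 0.06 and 0.43) and Arl5c at 0.32 (0.55, 0.48, 0.14 and 0.12). Elp4, a subunit of the Elongator complex, and Sag were at 0.30, Fhl1 and the stress-induced Nupr1 at 0.29, and Pcsk2 and Hoxb3 at 0.28. Sag encodes the arrestin of photoreceptors, yet it stood at 1 or above in 82.6% of these T cells, with rho of 0.48, 0.27, 0.27 and 0.19. Pcsk2, a prohormone-processing enzyme of neuroendocrine cells, stood at 1 or above in 38.8%. The most opposed were Spin1, a histone reader, at -0.27 (-0.42, -0.09, -0.33 and -0.23), Med11 at -0.25, Tmem128 at -0.24, the proteasome activator Psme4 at -0.21 and Creb3 at -0.20. Among the highest for Klf2 were Gm15427, a processed pseudogene whose reads may come from its parent gene, at 0.29, 2510002D24Rik and Polg2 at 0.27, and Atrn, Fam107a and Slfn5 at 0.25. The lowest were Emilin1 at -0.27, the glycolytic enzyme gene Pgk1 at -0.26, and Eif2s2, Tmem128 and Mta3 at -0.25. Tmem128 was thus among the 5 most opposed genes for both Klf6 and Klf2.

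**Figure D3:**
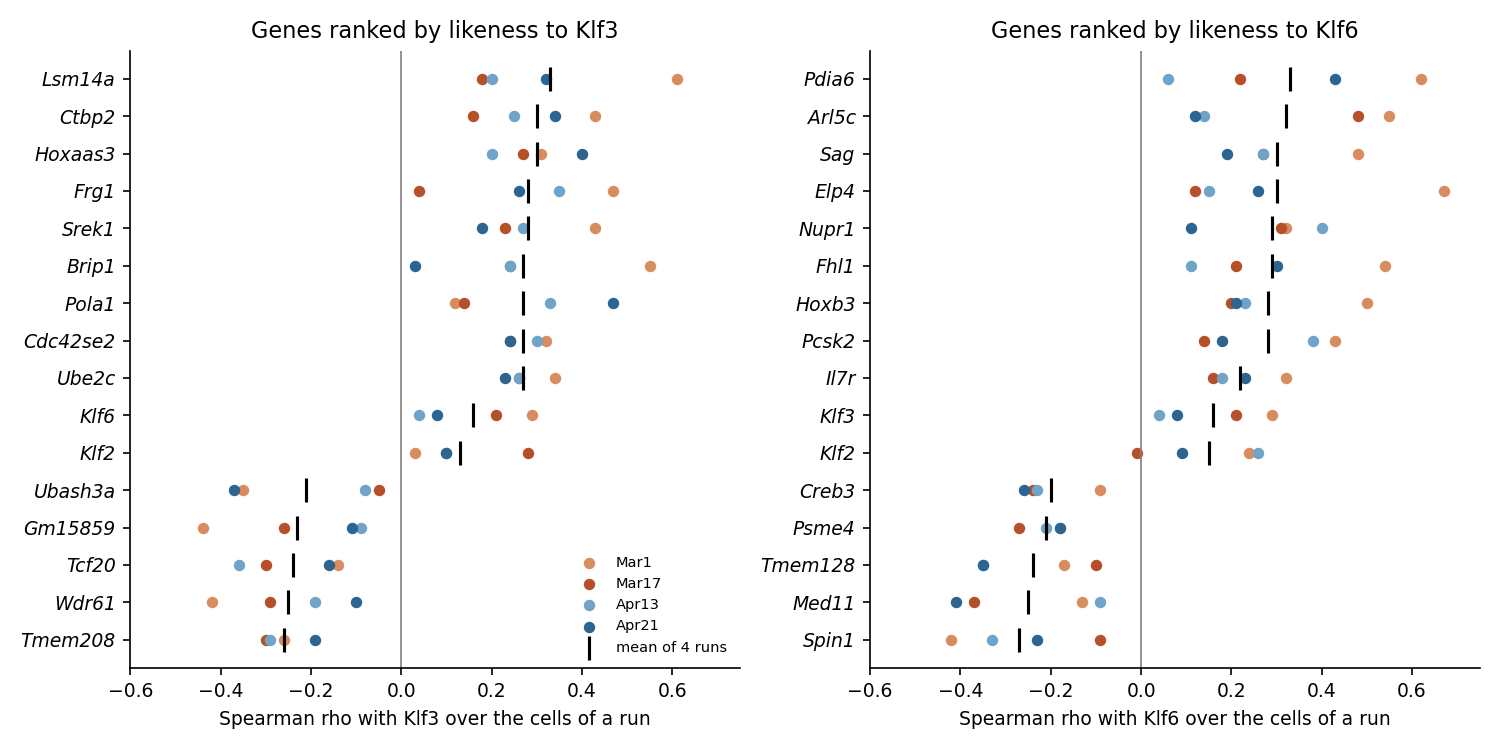
Spearman rho of each named gene with Klf3 (left) and with Klf6 (right) in each run (coloured points) and the mean of the 4 runs (black bars), with the other factors and, in addition, Ctbp2 and Il7r. The Mar1 run, with 25 cells, gives the largest rho for many genes. The named genes were picked as the extremes of mean rho, so by that choice the pairs among the factors lie closer to 0.

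Among known partners and targets, Ctbp2 was the gene nearest to a factor. Its mean rho with Klf3 was 0.30 (0.43, 0.16, 0.25 and 0.34), and counting Ctbp2 itself 6 of 10633 genes were as high. The paralogous corepressor Ctbp1 stood at -0.10 with Klf3 (0.03, 0.03, -0.25 and -0.21), and Ctbp2 stood at -0.11 with Klf2 and 0.03 with Klf6. The tie lay in low values. Ctbp2 was above 0 in 54.4% of Klf3-high cells (40.7% to 67.6%) and 35.5% of Klf3-low cells (27% to 44.8%), with 54.5% and 38.8% in March and 54.2% and 33.3% in April. At a linear value of 1 the shares were 10.5% (6 of 57) and 9.92% (12 of 121), and the Pearson correlation of log2 levels averaged 0.13. Sp2 had a rank rho of 0.21 with Klf3 and a Pearson correlation of 0.02. Il7r, the receptor for the survival cytokine interleukin 7, had a mean rho of 0.22 with Klf6, positive in every run (0.32, 0.16, 0.18 and 0.23), with a Pearson value of 0.23 and 117 genes as high; at a linear value of 1 it was in 50.4% of Klf6-high and 45.1% of Klf6-low cells, with opposite order in the 2 captures. S1pr1, the best known Klf2 target, had a mean rho of 0.12 with Klf2 (0.22, -0.11, 0.19 and 0.17), and 964 genes were as high. S1pr1 was in 50.9% of Klf2-high cells (36.8% to 64.9%) and 33.6% of Klf2-low cells (25.4% to 42.6%), with 48.1% against 40% in March and 53.8% against 28.6% in April. Ctbp2, Sp2 and Il7r were singled out from these lists after their values were seen.

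Last, cells high in a factor were compared with cells low in it over all genes. The mean log2 level of each class in each capture gave 4 class means, fitted in limma with the capture as a block, over 10794 genes above 0 in at least 10% of cells; a difference is the high minus the low mean log2(value + 1), ± SE, with zeros included, and is not a fold. Adjusted p is by Benjamini-Hochberg over all genes tested, two-sided at 0.05. Nothing says that the captures came from separate mice. With the capture as a block, the p-values rest on how far the high minus low difference varied between captures, which may be technical. Each gene had 1 residual degree of freedom, and limma drew its variance towards a trend over all genes. Because the members of each list were few and none passed, lists are given by counts and medians beside those of all genes.

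Between Klf2-high cells (27 in March, 26 in April) and Klf2-low cells (55 and 70), 0 of 10794 genes passed in limma, 0% of those tested. An unadjusted p under 0.05 was reached by 738, and no adjusted p lay under 0.478. No member of the lists below passed the test. Of all genes tested 45.8% had a positive difference, with 2366 positive and 3168 negative in both captures. Of 16 quiescence regulators 12 had a positive difference, 8 of them in both captures, with a list median of 0.59 (0.51 in March, 0.31 in April), against -0.03 for all genes; over the 14 settings that kept both captures the list median ran from 0.15 to 0.63. The leading member was Satb1, a chromatin organiser of T cells, with means of 6.03 in Klf2-high and 4.14 in Klf2-low March cells and of 4.90 and 3.39 in April (1.70 ± 0.54; adjusted p = 0.478 in limma). Bcl2 went the other way at -0.43 ± 0.20. Of 10 trafficking genes 7 were positive, 4 of them in both captures (list median 0.24, and -0.58 where the mean was taken on the linear scale before the log): Il7r differed by 1.32 ± 0.51 and Ccr7, which guides T cells into lymph nodes, by 0.94 ± 0.45. S1pr1 differed by 0.76 ± 0.47, with -0.06 in March and 1.57 in April. Of 11 activated T cell genes 8 were negative, 6 of them in both captures (median -0.29). Over the 14 settings this median ran from -0.78 to -0.09. The value nearest 0 came without the Mar1 cells, where the median of all genes was close to it, at -0.07. The inhibitory receptor gene Pdcd1 averaged 0.10 in Klf2-high and 1.09 in Klf2-low March cells, and 0.51 and 1.43 in April, and Cd44 differed by -1.55 ± 0.52.

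Of the 12 other family members tested 8 had a positive difference (median 0.28; 0.47 in March, 0.12 in April, and 0.09 without the Mar1 cells). Klf3 averaged 3.14 in Klf2-high and 2.26 in Klf2-low March cells and 2.62 and 1.55 in April, a difference of 0.98 ± 0.44 with an adjusted p of 0.704 in limma. Klf6 differed by 1.03 ± 0.51 (0.51 in March, 1.54 in April). The other way round, Klf2 differed by 0.76 ± 0.40 between the Klf3 classes and by 0.09 ± 0.41 between the Klf6 classes. Between the Klf2 classes Sp4 differed by 0.47 ± 0.18. Immediate early genes had 11 of 20 members positive and a median of 0.43 in March and -0.19 in April; Zfp36, which destabilises cytokine transcripts, differed by 1.45 ± 0.54 and Fos by 1.38 ± 0.54. Upstream and partner genes had opposite medians, 0.20 and -0.19. In this list the ubiquitin ligase gene Wwp1, whose product is known to degrade Klf2, stood at 1.65 in March and -0.48 in April. Among the smallest p values were those of Gm8995, Thra and Rasa3 for genes with a positive difference (0.77 to 1.59) and of Slc41a1, Trbj2-4, Bcl2a1b and Nlk for those with a negative one (-1.98 to -1.11). Bcl2a1b has near-identical copies and Gm8995 is a pseudogene, so their values are uncertain.

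Between Klf3-high cells (33 in March, 24 in April) and Klf3-low cells (49 and 72), 0 of 10794 genes passed in limma, 0% of those tested. An unadjusted p under 0.05 was reached by 518, and no adjusted p lay under 0.947. Over all genes 54.6% of the differences were positive, with 2995 genes positive and 2416 negative in both captures. Of the 12 other family members 9 were positive, 6 of them in both captures, with a median of 0.24 against 0.03 for all genes; without the Mar1 cells it was 0.06 against 0.08. Klf4 went against it at -0.67 ± 0.24 (0.48 in Klf3-high and 1.21 in Klf3-low March cells, 0.11 and 0.71 in April). The quiescence list had a median of -0.01, with 7 of 16 positive. Its leading members were Slfn2, a guardian of T cell quiescence, at 1.08 ± 0.49 and Tcf7 at -0.67 ± 0.45. The trafficking list had 5 of 10 positive: Cxcr4, the receptor for Cxcl12, averaged 1.32 in Klf3-high and 0.39 in Klf3-low March cells and 2.42 and 1.03 in April (1.16 ± 0.36). Of the immediate early genes 14 of 20 were negative (median -0.13), among them Egr2 at -0.57 ± 0.28 and Ier5 at -0.64 ± 0.32. Among activated T cell genes Myc, the driver of T cell growth, differed by -0.91 ± 0.30 in a list with medians of 0.52 in March and -0.57 in April, and Pdcd1 by -0.13 in March and 1.94 in April. Of the partners 6 of 10 were positive, led by Ctbp2 at 0.33 ± 0.21 and Fbxw7, a ubiquitin ligase subunit, at 0.38 ± 0.27.

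The smallest p values of the Klf3 comparison belonged to a neighbouring pair. Art2b, which encodes an ADP-ribosyltransferase on the T cell surface, averaged 2.11 in Klf3-high and 0.14 in Klf3-low March cells and 1.92 and 0.61 in April (1.63 ± 0.36; adjusted p = 0.947 in limma). Its relative Art2a-ps, on the same stretch of chromosome 7, differed by 1.36 ± 0.31, and reads of this pair may be shared. Mrps36 and Eif3a followed at 1.74 ± 0.42 and 1.95 ± 0.49. On the other side were Lime1, an adaptor of T cell receptor signalling, at -2.21 ± 0.51, Trac at -1.39 ± 0.33, the joining segment Trbj2-6 at -1.17 ± 0.29 and Actg1 at -1.41 ± 0.35. Trac averaged 7.96 in Klf3-high and 9.82 in Klf3-low March cells and 10.39 and 11.31 in April. The summed CD4 T cell markers had medians of 3367.1 and 4297.3 in March and 5935.2 and 6274.2 in April, Klf3-high cells first, and their part in these differences was not tested.

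Between Klf6-high cells (50 in March, 77 in April) and Klf6-low cells (32 and 19), 0 of 10794 genes passed in limma, 0% of those tested. An unadjusted p under 0.05 was reached by 810, and no adjusted p lay under 0.623. All genes together were shifted: 64.1% had a positive difference, with a median of 0.11, and Klf6-high cells held more detected genes (medians of 5414.5 in Klf6-high and 5133 in Klf6-low March cells, 4954 and 4783 in April). The part of that depth in single differences was not tested beyond averaging over cells of low and high gene number, under which the median was 0.063. Against this shift the lists stood close by. The family had a median of 0.19 with 9 of 12 positive, the partners 0.21 with 8 of 10, the activated genes 0.20 with 9 of 11, the quiescence list 0.17 with 10 of 16, trafficking 0.13 with 7 of 10 and the immediate early genes 0.02 with 11 of 20.

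Klf3 led the family, with means of 3.12 in Klf6-high and 1.67 in Klf6-low March cells and of 1.92 and 1.49 in April (0.94 ± 0.45; adjusted p = 0.66 in limma), and Klf7 differed by -0.39 ± 0.26. The other way round, Klf6 differed by 0.17 ± 0.47 between the Klf3 classes. Between the Klf6 classes the integrin gene Itga4 differed by 0.92 ± 0.45. The feedback inhibitors of NF-kB signalling split, Nfkbia at -1.33 ± 0.55 and Tnfaip3 at 1.21 ± 0.53. Foxo1, which is known to drive Klf2, differed by -0.88 ± 0.51 and Tob1 by -0.53 ± 0.35. The partners Mapk7 (0.26 ± 0.21) and Mef2a (0.23 ± 0.20) and the activated genes Pdcd1 (-0.12 in March, 1.36 in April) and Tnfrsf18 (0.67 ± 0.49) led their lists. The smallest p values belonged to Gapvd1, a regulator of endocytosis, at 1.82 ± 0.41, the antisense transcript Gm15825, Galnt1 and Tulp4, and on the other side to Cox4i1, Aamdc, Clec2i and Use1. Cox4i1, a subunit of cytochrome c oxidase, averaged 5.19 in Klf6-high and 7.86 in Klf6-low March cells and 6.79 and 8.83 in April (-2.36 ± 0.51; adjusted p = 0.623 in limma, and 0.000725 with a pseudocount of 0.1).

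**Figure D4:**
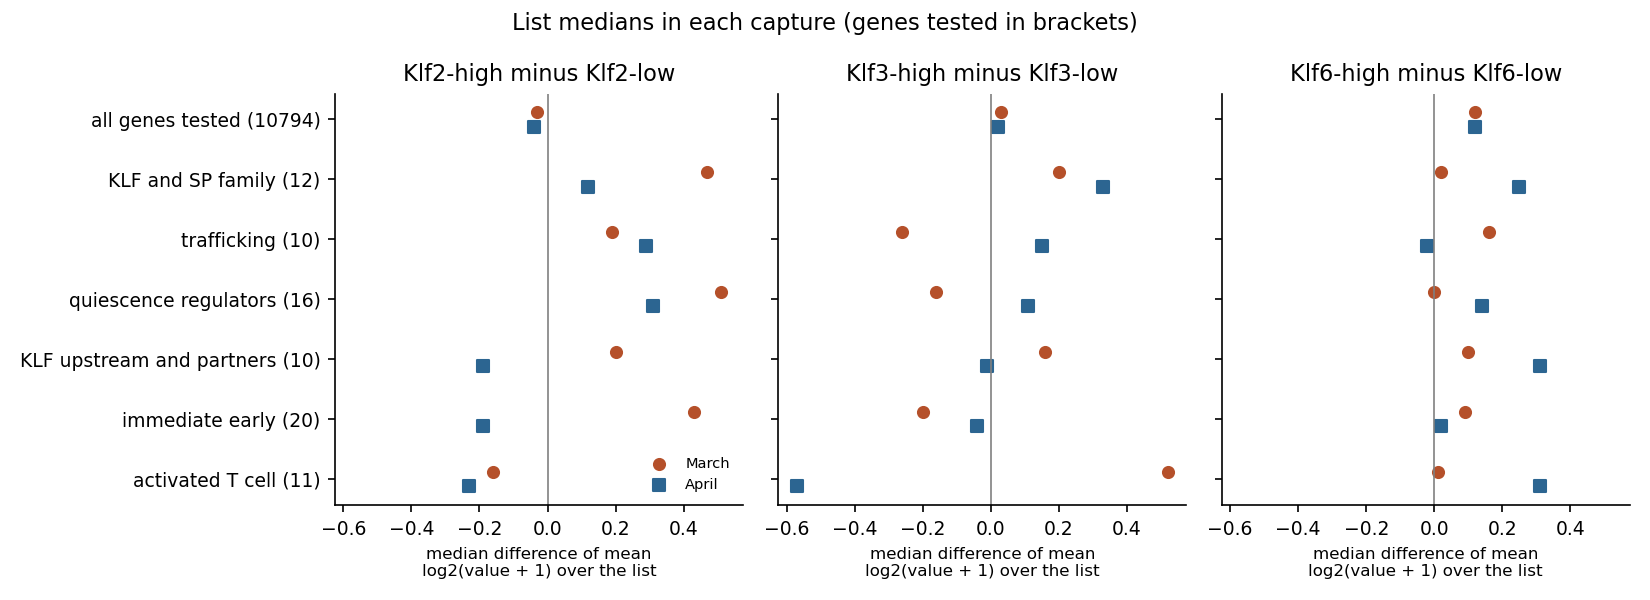
Median over each fixed list of the difference between cells high and low in a factor, in mean log2(value + 1), for March (circles) and April (squares); genes tested are in brackets. The quiescence list stands above all genes in both captures for Klf2, and for Klf3 the activated list has 0.52 in March and -0.57 in April.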

How the data were processed

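Single-cell RNA levels of 178 cells were read from 1 table. Its values are log2 values made by the authors; no header states the unit, and the linear values summed to between 892206 and 979888 per cell, so they were taken as TPM-like abundances with 1 added before the log2. Low values fell with exonic length (Spearman -0.594 over 10340 genes), as per-length units do. Per the submitters' processing notes the genome build was mm10; for the aligner, the counter and the gene filter, the tool is not given in the sources used here. Of the Ensembl IDs 12163 had a GENCODE vM21 symbol and 269 had none, 0 columns were left unmapped, and 0 cells fell under the minimum of 500 detected genes. No 2 cells held identical values, the highest correlation between cells was 0.521, and no doublet caller was run.

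Shares carry exact Clopper-Pearson 95% intervals. Classes were split at a linear value of 1, as the share of each factor lay between 15% and 85% in both captures. Their 4 mean log2 values were fitted in limma 3.58.1 (R 4.3.3; mean-variance trend, eBayes, capture as a block because both classes of a capture come from 1 pool). Correlations used SciPy 1.17.1, numpy 2.4.6 and Python 3.11.15. The limma step was tested on random classes of the same sizes, with 50 genes shifted by each of 1, 2, 3 and 4 in log2 level. Shifts of 1 were recovered in 14%, 22% and 10% of these genes for Klf2, Klf3 and Klf6. Shifts of 2 were recovered in 88%, 92% and 84%. Of the genes left unshifted 5, 13 and 7 were called. A true difference near 1 would thus mostly be missed. The shifts of all sizes were planted together and in every cell of a class, which eases the Benjamini-Hochberg threshold. Recovery of a few shifted genes alone was not tested and may be lower. In the data, differences of -2.36 (Cox4i1, Klf6 classes, adjusted p = 0.623 in limma) and -2.21 (Lime1, Klf3 classes, adjusted p = 0.947 in limma) did not pass. Named were the 3 factors and their family, the 8 highest and 5 lowest genes by mean rho with 1 sign in all runs, the 4 smallest p values per direction, and the leading members of the fixed lists. A few genes so chosen are not reported here. Members and lists were chosen with earlier results of these data known. Alternatives were other thresholds, pseudocounts, averages, scalings, blocks and filters, and leaving out captures, the Mar1 run or the 3 mostly mitochondrial cells.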

Additional observations from a re-analysis of the deposited data

How the results depend on the processing

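The level that counts as expressed set the shares: above 0 and at a linear value of 10, Klf2 was in 50% and 20.8% of cells, Klf3 in 68% and 20.8% and Klf6 in 97.2% and 33.1%. Without 1 capture the shares at 1 ran from 27.1% to 32.9% for Klf2, 25% to 40.2% for Klf3 and 61% to 80.2% for Klf6, and the mean rho from 0.10 to 0.16 for Klf2 with Klf3, 0.12 to 0.18 for Klf2 with Klf6 and 0.06 to 0.25 for Klf3 with Klf6. Of 39 alternative counts of genes called in limma, 36 were 0 and 3 were 1: Trac was called between the Klf2 classes after quantile normalization (-1.53, adjusted p = 0.0191), Bcl2a1b with classes split at a linear value of 10, a setting chosen after seeing the data (-2.52, adjusted p = 0.0289), and Cox4i1 between the Klf6 classes with a pseudocount of 0.1 (-2.99, adjusted p = 0.000725). The fit with no replicate block called 0 genes for each factor, with 446, 344 and 563 at an unadjusted p under 0.05 for Klf2, Klf3 and Klf6. With 1 capture alone there are no residual degrees of freedom, so those differences have no test. Averaging linear values before the log moved the median of all genes to -0.245 for Klf2, -0.148 for Klf3 and 0.389 for Klf6.

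Of 65 gene differences 19 changed sign under at least 1 alternative; the cause was not tested. With linear averages Wwp1 (-0.45) and Mapk7 (-0.38) did so between the Klf2 classes, Fbxw7 (-0.20), Pdcd1 (-0.22) and Klf6 (-0.45) between the Klf3 classes and Klf2 (-0.18) between the Klf6 classes. With classes split at above 0, Trbj2-6 (0.35), Tcf7 (0.80) and Myc (0.16) did so for Klf3; for Klf6, where that split leaves 2 and 3 low cells, Gapvd1 (-0.83), Use1 (0.43), Klf7 (0.50), Foxo1 (1.57), Tob1 (0.78), Mapk7 (-0.79) and Mef2a (-0.21) did. A split at the capture median turned Tcf7 (0.04), Foxo1 (0.02), Tob1 (0.12) and Pdcd1 between the Klf6 classes (-0.38), and a split at 10 turned Mapk7 for Klf2 (-0.00), Pdcd1 (-0.59) and Tnfrsf18 (-0.12) for Klf6. Without the Mar1 cells Mapk7 for Klf2 (-0.19), Tcf7 for Klf3 (0.02) and Klf2 for Klf6 (-0.26) turned, and the last also with a pseudocount of 10 (-0.09) and quantile normalization (-0.03). With April alone and with March alone the differences were -0.48 and 1.65 for Wwp1, -0.22 and 0.57 for Mapk7 and 1.57 and -0.06 for S1pr1 between the Klf2 classes. They were -0.10 and 0.44 for Klf6 and 1.94 and -0.13 for Pdcd1 between the Klf3 classes, and -0.24 and 0.76 for Mapk7, 1.36 and -0.12 for Pdcd1 and -0.06 and 0.25 for Klf2 between the Klf6 classes. Of the rank correlations named, Cdc42se2 (0.17), Ube2c (0.14), Tmem208 (-0.16) and Tcf20 (-0.08) with Klf3 were among 10 that moved by more than the spread between runs, 9 of them as Pearson correlations.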
